A study of Mus musculus with 1111 samples.

Results

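A set of 7 genes of the Trem2 and Tyrobp signalling route of microglia were followed across cells sorted by their load of labelled plasma protein. The 7 genes were Trem2, Tyrobp, Lyn, Syk, Plcg2, Vav1 and Inpp5d, taken by symbol from the 35583 genes of the count tables. All 7 were found, and all 7 passed the filter on low values in each comparison. They were chosen for their place in the route, with earlier results of these data known.

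TREM2 is a surface receptor that binds lipids, lipoproteins and lipid-rich debris, and it has almost no cytoplasmic signalling part of its own. It pairs with TYROBP (also called DAP12), an adaptor whose ITAM, a short tyrosine motif, is phosphorylated by Src family kinases such as LYN and then binds the kinase SYK. SYK passes the signal to phospholipase C gamma 2 (PLCG2), which releases calcium and diacylglycerol, and to VAV1, which activates Rac and the actin cytoskeleton, while the lipid phosphatase SHIP1 (gene Inpp5d) opposes phosphoinositide 3-kinase. In the brain these genes are expressed mainly by microglia, and variants of several of them are tied to the risk of Alzheimer's disease.

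The cells were single microglia from the brains of young mice aged 3 months, taken 20 hours after the animals received plasma proteins coupled to the fluorophore NHS-Atto647N. Sorting by that signal gave the groups plasma none, plasma low and plasma high, and a library was made from each cell by Smart-seq2, which reads whole transcripts. All groups came from injected mice, so plasma none holds cells without signal and is not an uninjected control. Strain and sex are not given in the sources used here.

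The labels name no animal, so a group counted as 1 sample and no test between groups was possible. Each label carries a TH number from 1 to 3 of unstated meaning. Values are given for each TH number in the order 1, 2 and 3, and every error is the SD over these 3 numbers, which is not a spread between animals. Of 1045 cells with values, 987 had at least 50000 reads and 500 genes. Of these, 35.1% belonged to plasma none, 35.6% to plasma low and 29.4% (290 cells) to plasma high. The cells of a group were summed within each TH number, giving 9 sums of 21309816 to 49323522 reads. In every TH number each group filled its own block of plate columns, so the group and the place on the plate cannot be told apart.

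The cells carried the markers of microglia. The 8 microglial markers summed to between 44428 and 51767 CPM (counts scaled to the total of reads in genes) over the 9 sums. Markers of border-associated macrophages summed to 0 to 22.2 CPM, with 6 of 8 at 0 in every group, and those of monocytes to 0 to 13.7 CPM, with 5 of 8 at 0. Other lists held reads, and their most abundant genes were Bsg (endothelial), Csf3r (neutrophil), Cd79b (lymphocyte), Slc1a3 (astrocyte), Cnp (oligodendrocyte) and Snap25 (neuronal). Each of these lists also had markers at 0 in every group. Endothelial markers summed to 429 to 642 CPM with 4 of 8 at 0 (Cldn5 among them), neutrophil markers to 316.6 to 437 CPM with 7 of 8 at 0 (S100a8, S100a9 and Ly6g among them), and lymphocyte markers to 22.6 to 82.9 CPM with 7 of 8 at 0 (Cd3e among them). Astrocyte markers summed to 214.2 to 377.7 CPM with 3 of 8 at 0 (Gja1 and Aldh1l1 among them), and oligodendrocyte markers to 104.6 to 266.95 CPM with 1 of 8, Mog, at 0. Neuronal markers summed to 58.03 CPM in TH 2 of plasma high and to at most 2.4 CPM elsewhere, with 2 of 8 at 0. Some measures of the cells moved with the groups. The median mitochondrial share of reads was 0.548% to 0.659% in plasma none. In plasma low it was 0.721% to 0.878%, and it reached 0.751% to 1.15% in plasma high. At an equal depth of 50000 reads, the median number of genes with a read was 1457 to 1594 in plasma none, beside 1619 to 2010 and 1653 to 1880 in plasma low and plasma high. The part of these measures in the results below was not tested.

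The levels of the 7 genes spanned a wide range. With the principal transcript as length, the receptor and its adaptor stood far above the kinases and effectors. On the scale of CPM per kilobase of the principal transcript, Tyrobp stood at 1110.1 ± 188.4 and Trem2 at 1008 ± 33.6 in plasma none, and the values of this pair overlapped. Lyn followed at 214.3 ± 35.8, Vav1 at 86.5 ± 10.2 and Inpp5d at 66.5 ± 7.01 CPM per kilobase. Plcg2 at 29.4 ± 12.2 and Syk at 9.12 ± 1.94 CPM per kilobase were the lowest. From Trem2 downward, neighbours in this order did not overlap over the TH numbers of plasma none.

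The order of the means was the same in all 3 groups. In plasma low the per-length levels of Tyrobp (1417 ± 234.03) and Trem2 (1002 ± 15.96) no longer overlapped, while those of Vav1 (94.4 ± 22.5) and Inpp5d (65.8 ± 10.95) did. In plasma high Tyrobp stood at 1557 ± 409.5, Trem2 at 977 ± 158.7, Lyn at 243.4 ± 33.6, Vav1 at 117.05 ± 26.3 and Inpp5d at 71.5 ± 14.7 CPM per kilobase. Plcg2 (20.3 ± 3.20) and Syk (11.4 ± 5.71) overlapped there. The distance of Trem2 from Tyrobp and from Lyn depends on the length chosen, as Trem2 has a principal transcript of 1088 bases but 4946 bases of exon over all its annotated transcripts. With the latter, Trem2 stood at 221.7 ± 7.38 CPM per kilobase in plasma none, apart from Tyrobp at 939 ± 159.3 and close to Lyn at 178.2 ± 29.7. In plasma high, Trem2 (214.8 ± 34.9) and Lyn (202.4 ± 27.97) then overlapped. With that length, Vav1 and Inpp5d in plasma low did not overlap, nor did Plcg2 and Syk in plasma high. In CPM, which takes no account of length, the mean of Lyn in plasma none exceeded that of Tyrobp.

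**Figure D1:**
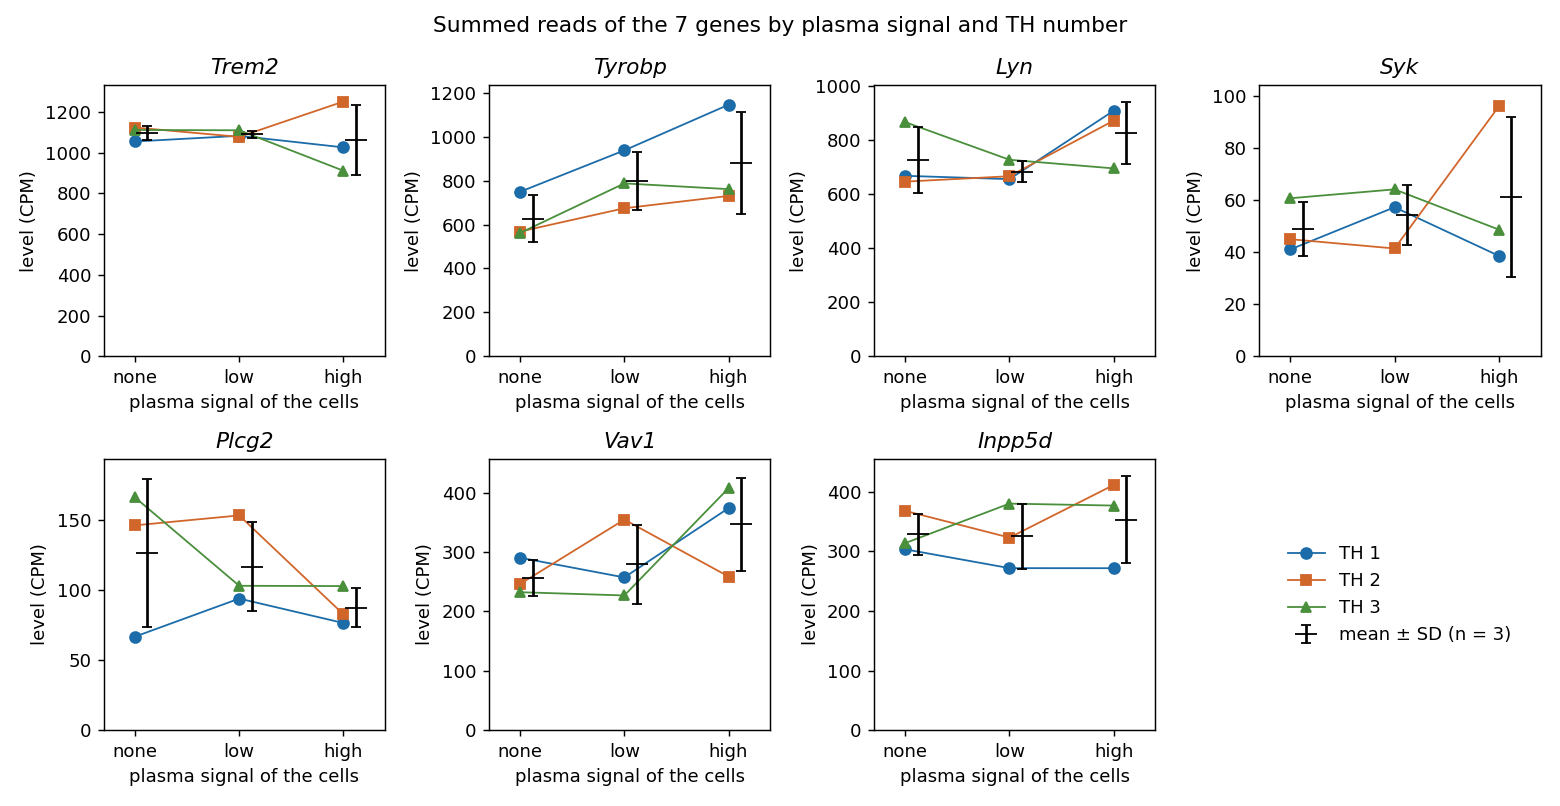
Level of each gene (CPM, linear axis from 0) in plasma none, low and high, with 1 line per TH number and the mean ± SD over the 3 TH numbers beside it. The Tyrobp lines are lowest in plasma none in all 3 TH numbers, while those of Trem2 stay between 911 and 1251 CPM with no common direction.

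Trem2 (ENSMUSG00000023992, chromosome 17: 48346401 to 48354147, plus strand, GRCm38), the receptor, had nearly the same level whatever the plasma signal. In plasma none it stood at 1055, 1123 and 1111 CPM, in plasma low at 1083, 1077 and 1110 CPM, and in plasma high at 1026, 1251 and 911 CPM. The groups overlapped, and plasma high held both the highest and the lowest value. The means were 1096 ± 36.5, 1090 ± 17.4 and 1063 ± 172.7 CPM. The log2 ratio within a TH number was -0.06 ± 0.22 for plasma high against plasma none and -0.01 ± 0.05 for plasma low against plasma none, so neither mean exceeded its spread.

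Most single cells carried Trem2 reads. In plasma none, low and high the median cell had 899.5, 989 and 965 CPM, and the highest had 5824, 4044 and 4418 CPM. No read was found in 5.78%, 3.42% and 4.14% of cells. At 50000 reads per cell, the share of cells with a Trem2 read was 93.9% in plasma none (95% exact binomial interval 90.9% to 96.2%), 95.7% among plasma low cells (93.1% to 97.6%) and 95.2% among plasma high cells (92.03% to 97.3%). These intervals overlap, and they cover counting error only. Expected shares, computed without a random draw of reads, were 93.3% ± 1.19, 96.3% ± 0.672 and 95.2% ± 2.23, and in them plasma low lay above plasma none without overlap. The thinned shares of Trem2 overlapped in both comparisons, while 17.2% of all tested genes had thinned shares in plasma low above plasma none without overlap.

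Tyrobp (ENSMUSG00000030579, chromosome 7: 30413760 to 30417585, plus strand), the ITAM adaptor, was higher in cells with plasma signal in every TH number. It stood at 749, 568 and 562 CPM in plasma none, at 937, 674 and 787 CPM in plasma low, and at 1144, 729.8 and 761 CPM in plasma high. TH 1 was the highest in each group, and because of that the groups overlapped when TH numbers were pooled: plasma none of TH 1 lay above plasma low and plasma high of TH 2. The means were 626 ± 106.3, 799 ± 131.99 and 878 ± 230.9 CPM. Within a TH number, plasma high exceeded plasma none by log2 ratios of 0.61, 0.36 and 0.44, a mean of 0.47 ± 0.13 or 1.39-fold. Plasma low exceeded plasma none by 0.32, 0.25 and 0.49, a mean of 0.35 ± 0.12 or 1.28-fold. Both means exceeded their spread over TH numbers, but neither reached 1.5-fold. Between plasma high and plasma low the mean log2 ratio of Tyrobp was 0.12 ± 0.17, within its spread.

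Among other well expressed genes a difference of that size was not rare. Of 806 genes with at least 200 CPM in plasma high against plasma none, 10.8% had a mean log2 ratio at least as high as that of Tyrobp, and 9.55% had it with a positive ratio in 3 of 3 TH numbers. In plasma low against plasma none the corresponding shares were 7.70% and 5.13% of 779 genes. A single cell supplied 7.15% of the Tyrobp reads of plasma high. With the cell of most reads left out of each sum, the mean log2 ratio was 0.42 for plasma high and 0.38 for plasma low against plasma none.

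Tyrobp also reached more cells. At 50000 reads per cell, a Tyrobp read was found in 93.1%, 91.2% and 94.9% of plasma none cells, in 99.2%, 99.2% and 98.3% of plasma low cells, and in 99.01%, 96.9% and 100% of plasma high cells. The shares of plasma none lay below all those of plasma low and plasma high. Over all cells the share was 93.1% (95% exact interval 89.9% to 95.5%) in plasma none, 98.9% (97.1% to 99.7%) for plasma low cells and 98.6% (96.5% to 99.6%) for plasma high cells. Without thinning it was 94.2%, 99.2% and 98.97%. Shares above those of plasma none with no overlap were found for 17.5% of the 5534 genes tested in plasma high and for 17.2% of the 5489 tested in plasma low. The median gene was detected in 2.53 and 3.03 percentage points more cells than in plasma none.

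The ratio of the adaptor to its receptor was lowest in plasma none in each TH number. Per length, the log2 ratio of Tyrobp to Trem2 was 0.45, -0.04 and -0.04 in plasma none, 0.74, 0.27 and 0.45 in plasma low, and 1.11, 0.17 and 0.69 in plasma high. TH 1 had the highest ratio in each group. The means were 0.13 ± 0.28, 0.49 ± 0.24 and 0.66 ± 0.47, or 1.09-fold, 1.4-fold and 1.57-fold more Tyrobp than Trem2. Within a TH number the ratio was higher by 0.65, 0.21 and 0.72 in plasma high when set against plasma none, a mean of 0.53 ± 0.28. It was higher by 0.29, 0.31 and 0.49 in plasma low, a mean of 0.36 ± 0.11. Plasma high and plasma low differed by 0.17 ± 0.24, with TH 2 in the opposite direction. These differences between groups do not depend on the transcript length, but the ratios themselves do: with the union of exons, a length chosen after seeing the data, their means were 2.07, 2.43 and 2.60.

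Cells with a read of Trem2 but none of Tyrobp were mostly plasma none cells. At 50000 reads they were 22 plasma none cells (6.36%, exact interval 4.03% to 9.47%), 4 plasma low cells (1.14%, 0.311% to 2.89%) and 4 plasma high cells (1.38%, 0.377% to 3.49%). By TH number the shares were 6.90%, 7.96% and 4.27% in plasma none, 0.847%, 0.855% and 1.72% in plasma low, and 0.990% and 3.12% in plasma high, where a count of 0 of 93 cells of TH 3 allows a share of up to 3.23% (3 cells of the total). Plasma none lay above the other groups in each TH number. As most cells had a Trem2 read, these shares largely repeat the detection of Tyrobp given above. Detection shifted likewise, without overlap, for 17.5% of tested genes in plasma high and 17.2% in plasma low. The reverse pattern, Tyrobp without Trem2, was found in 5.49%, 4.27% and 4.83% of the cells of plasma none, low and high. Reads of both partners were present in 87.6%, 94.6% and 93.8%. At this depth a cell without a read may still express the gene.

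**Figure D2:**
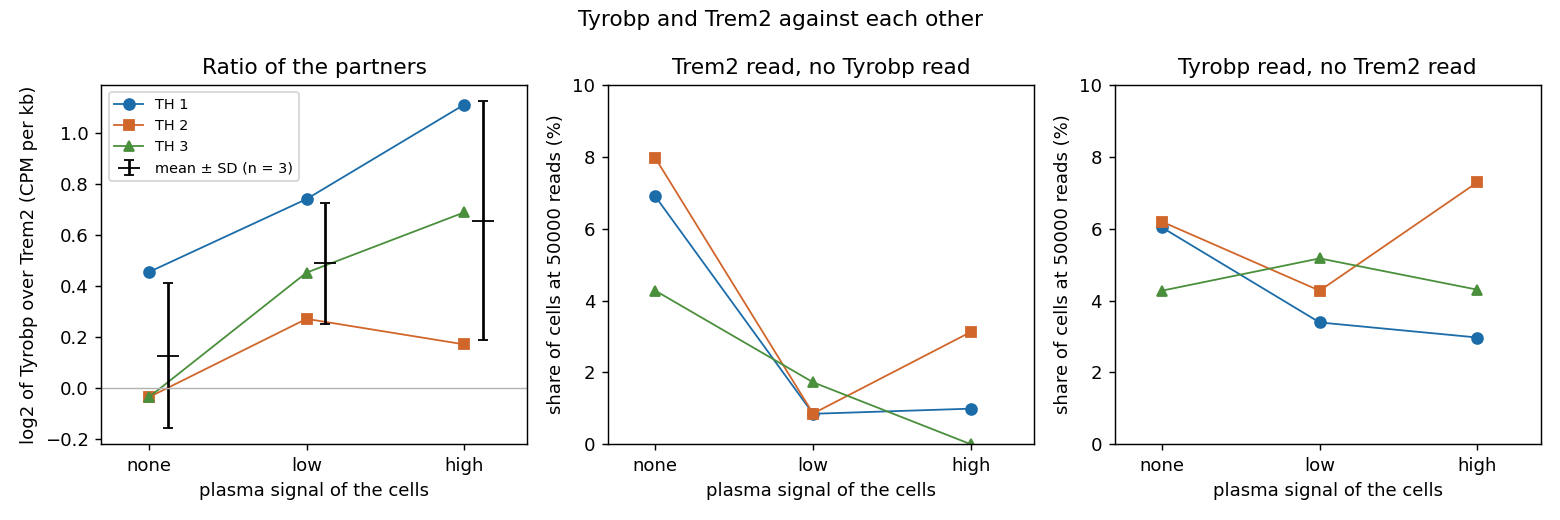
Left, log2 ratio of Tyrobp to Trem2 (CPM per kilobase) by plasma group, with 1 line per TH number and the mean ± SD; middle and right, the share of cells (%) with a read of only Trem2 or only Tyrobp at 50000 reads per cell. The ratio is lowest in plasma none in each TH number, and cells with Trem2 but no Tyrobp read make up 4.27% to 7.96% of plasma none and at most 3.12% elsewhere.

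Lyn (ENSMUSG00000042228, chromosome 4: 3678115 to 3813122, plus strand) encodes the Src family kinase that acts on the ITAM. Its levels were 667, 646 and 865 CPM in plasma none, 655, 666 and 726 CPM in plasma low, and 907, 871 and 694.5 CPM in plasma high. Plasma high exceeded plasma none in TH 1 and TH 2 and was below it in TH 3. The mean log2 ratio of 0.19 ± 0.44 was within its spread, as were -0.08 ± 0.16 for plasma low against plasma none and 0.26 ± 0.29 for plasma high against plasma low. The median cell of plasma none had 232.5 CPM, that of plasma low 484 and that of plasma high 476, and 30.9%, 29.3% and 22.1% of cells had no read. At equal depth 66.2%, 69.2% and 74.5% of cells had a Lyn read, with overlap over TH numbers. Lyn overlaps 4 annotated genes on the other strand, and without knowledge of strand in the counting their reads cannot be told apart.

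Syk (ENSMUSG00000021457, chromosome 13: 52583173 to 52648792, plus strand), the kinase recruited by the phosphorylated adaptor, was the scarcest of the 7 transcripts. It stood at 41.1, 45 and 60.7 CPM in plasma none, at 57.3, 41.4 and 64.1 CPM in plasma low, and at 38.6, 95.96 and 48.7 CPM in plasma high. The high mean of plasma high, 61.1 ± 30.6 CPM, came from TH 2, and the other TH numbers lay inside or below the range of plasma none. The log2 ratios to plasma none were -0.09, 1.08 and -0.31, a mean of 0.23 ± 0.75, and without TH 2 the mean was -0.20. TH 2 of plasma high was also the sum with the neuronal reads given above, and without cells carrying markers of another type the mean log2 ratio of Syk was 0.19. Most cells had no Syk read, namely 80.6%, 74.6% and 71.7% of the 3 groups.

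Within TH 1 and TH 3, the share of cells with a Syk read ranked the groups otherwise than its summed level. At 50000 reads per cell it was 15.5%, 15.9% and 19.7% in plasma none, 27.1%, 14.5% and 24.1% in plasma low, and 22.8%, 27.1% and 21.5% in plasma high. All plasma high values lay above those of plasma none, whereas plasma low overlapped plasma none. Over all cells the share was 17.1% (exact interval 13.2% to 21.4%), 21.9% (17.7% to 26.6%) and 23.8% (19.01% to 29.1%), and unthinned 19.4%, 25.4% and 28.3%. Syk thus stood among the 17.5% of genes with a higher share in plasma high, while its level in CPM did not differ beyond its spread. Over the groups, the mean CPM (48.9, 54.3 and 61.1) and the share stood in the same order. In TH 1 and TH 3 their orders differed, so no order is read from the share.

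Plcg2 (ENSMUSG00000034330, chromosome 8: 117498291 to 117635142, plus strand) encodes the phospholipase that turns the Syk signal into calcium release. It stood at 66.7, 146.1 and 165.9 CPM in plasma none, at 93.8, 153.1 and 102.96 CPM in plasma low, and at 76.4, 82.6 and 102.8 CPM in plasma high. TH 2 and TH 3 were lower in plasma high than in plasma none, and TH 1, the lowest of plasma none, was higher. The log2 ratios of 0.19, -0.82 and -0.69 gave a mean of -0.44 ± 0.55, within its spread. Without TH 1 the mean was -0.75 and met the 1.5-fold rule, as it did with cells thinned to 50000 reads (-0.62). Of all tested genes 25.1% and 13.4% met the rule in these settings. Against plasma low, plasma high was lower in 3 of 3 TH numbers by log2 ratios of -0.29, -0.88 and -0.0027, the last of them hardly a difference, a mean of -0.39 ± 0.45. Without TH 3 that mean was -0.59, past 1.5-fold.

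Plcg2 was read in fewer cells of plasma high at equal depth. The shares were 26.7%, 27.4% and 33.3% in plasma none, 27.97%, 33.3% and 31.03% in plasma low, and 24.8%, 21.9% and 25.8% in plasma high. All plasma high values lay below those of plasma none. The expected shares were 28.5% ± 2.98 in plasma none and 24.1% ± 1.92 in plasma high and did not overlap either. Only 1.48% of the tested genes had a share in plasma high below plasma none with no overlap, and in plasma low, where Plcg2 overlapped, it was 0.838%. Without thinning, at 30.1% against 27.9%, the TH numbers overlapped. Over all cells the exact intervals at equal depth, 24.4% to 34.3% in plasma none and 19.3% to 29.5% in plasma high, overlap as well. Plcg2 overlaps 1 annotated miRNA gene on the other strand.

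Vav1 (ENSMUSG00000034116, chromosome 17: 57279100 to 57328031, plus strand), the exchange factor that activates Rac, was higher in plasma high in 3 of 3 TH numbers when set against plasma none. It stood at 290.5, 246.4 and 232.4 CPM in plasma none, at 257.3, 354.7 and 226.96 CPM in plasma low, and at 374.04, 258.8 and 408 CPM in plasma high. The value of TH 2 in plasma high lay below that of TH 1 in plasma none, so the groups overlapped. The log2 ratios of 0.36, 0.07 and 0.81 gave a mean of 0.41 ± 0.37, or 1.33-fold, just above its spread. A ratio as high with 3 of 3 TH numbers was found in 12.3% of the 806 genes of at least 200 CPM. Without TH 2 the mean was 0.59, past 1.5-fold. Against plasma low the mean of 0.31 ± 0.68 was within its spread, and without TH 2 it was 0.69. At equal depth 45.95%, 50.7% and 54.5% of cells had a Vav1 read, with overlap over TH numbers.

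Inpp5d (ENSMUSG00000026288, chromosome 1: 87620312 to 87720507, plus strand) encodes SHIP1, the inhibitory lipid phosphatase of the route. Its levels were 303.2, 367.6 and 313.6 CPM in plasma none, 271.6, 322.8 and 379.8 CPM in plasma low, and 271.5, 411 and 376.5 CPM in plasma high. TH 1 was the lowest of each group, and the groups overlapped throughout. The mean log2 ratios were 0.09 ± 0.22 for plasma high and -0.02 ± 0.26 for plasma low against plasma none, both within their spread. A single cell supplied 11.8% of the Inpp5d reads of plasma high. At equal depth 68.2%, 70.7% and 74.5% of cells had a read, with overlap over TH numbers.

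**Figure D3:**
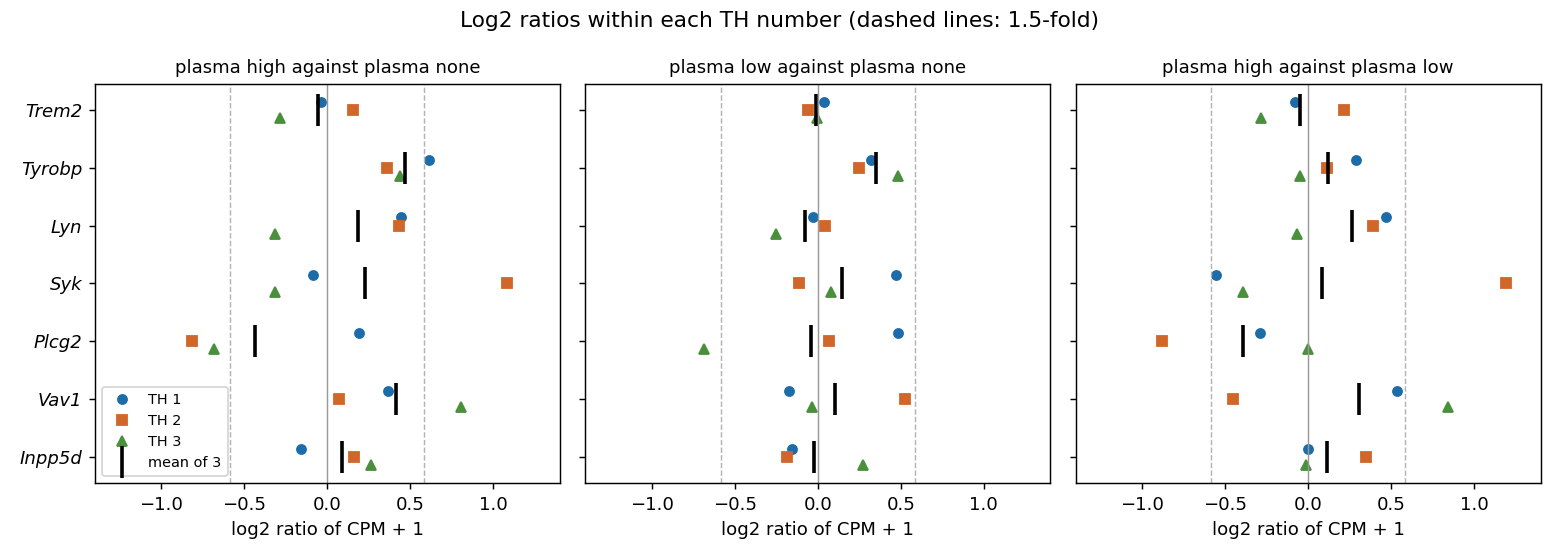
Log2 ratio of CPM + 1 within each TH number (points) and its mean (black bar) for the 7 genes in the 3 comparisons, with dashed lines at 1.5-fold. Tyrobp lies to the right of 0 in all TH numbers against plasma none, whereas Syk in plasma high spans from -0.31 to 1.08.

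Over the whole route, no gene met the 1.5-fold rule, which asks for a mean ratio of at least 1.5-fold with 1 direction in 3 of 3 TH numbers. In plasma high against plasma none 0 of 7 met it, beside 16.3% of all tested genes (9.34% higher and 6.98% lower), and 5.15% at 2-fold. In plasma low against plasma none 0 of 7 met it beside 10.2% of genes, and 2.64% at 2-fold. In plasma high against plasma low 0 of 7 met it beside 11.1% of genes, and 3.28% at 2-fold. The comparisons against plasma none share the plasma none cells. These zeros rest on all 3 TH numbers: leaving out TH 1 or TH 2 brought 1 gene past the rule in plasma high against plasma none, and leaving out TH 2 or TH 3 brought 1 in plasma high against plasma low, as given above for Plcg2 and Vav1. With a TH number left out, 22.8% to 28.2% and 19.2% to 22.2% of all tested genes met the rule in these comparisons. Without the outermost wells of the plate Tyrobp met it, at a log2 ratio of 0.59, beside 18.6% of all tested genes.

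The median of the 7 mean log2 ratios was 0.19 in plasma high against plasma none, where the median over 5534 tested genes was 0.05. By TH number the median of the 7 genes was 0.19, 0.16 and -0.29, so TH 3 had the opposite sign. Tyrobp and Vav1 were higher in 3 of 3 TH numbers, as were 18.8% of all tested genes, and 0 of 7 were lower in 3 of 3, beside 13.8%. For plasma low against plasma none the median was -0.01 (0.04, 0.04 and -0.0018 by TH number), beside 0.05 over 5489 genes. There Tyrobp alone of the 7 was higher in 3 of 3, beside 16.7% of genes, and 0 were lower, beside 11.8%. Without TH 3 that median was 0.18. For plasma high against plasma low the median was 0.11, beside 0.01 over 5709 genes. By TH number it was -0.00055, 0.21 and -0.05, so TH 2 alone was positive. Of the 7, 0 were higher in 3 of 3 there, beside 14.1% of genes, and Plcg2 was lower, beside 13.1%.

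Single cells seldom held reads of the complete route. At 50000 reads, all 7 genes were found together in 4, 11 and 4 cells of the groups none, low and high. The mean number of the 7 genes with a read was 4.13, 4.38 and 4.45 per cell. At least 5 of the 7 were present in 39.02%, 45.3% and 51.4% of cells, and by TH number in 43.97%, 31.9% and 41.03% of plasma none against 55.4%, 39.6% and 59.1% of plasma high. In each TH number plasma high lay above plasma none, with overlap between TH numbers. The receptor, the adaptor and Syk were read together in 15.3%, 20.8% and 22.8%. The number of genes of any kind read per cell was higher in plasma low and plasma high too, as given above.

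**Figure D4:**
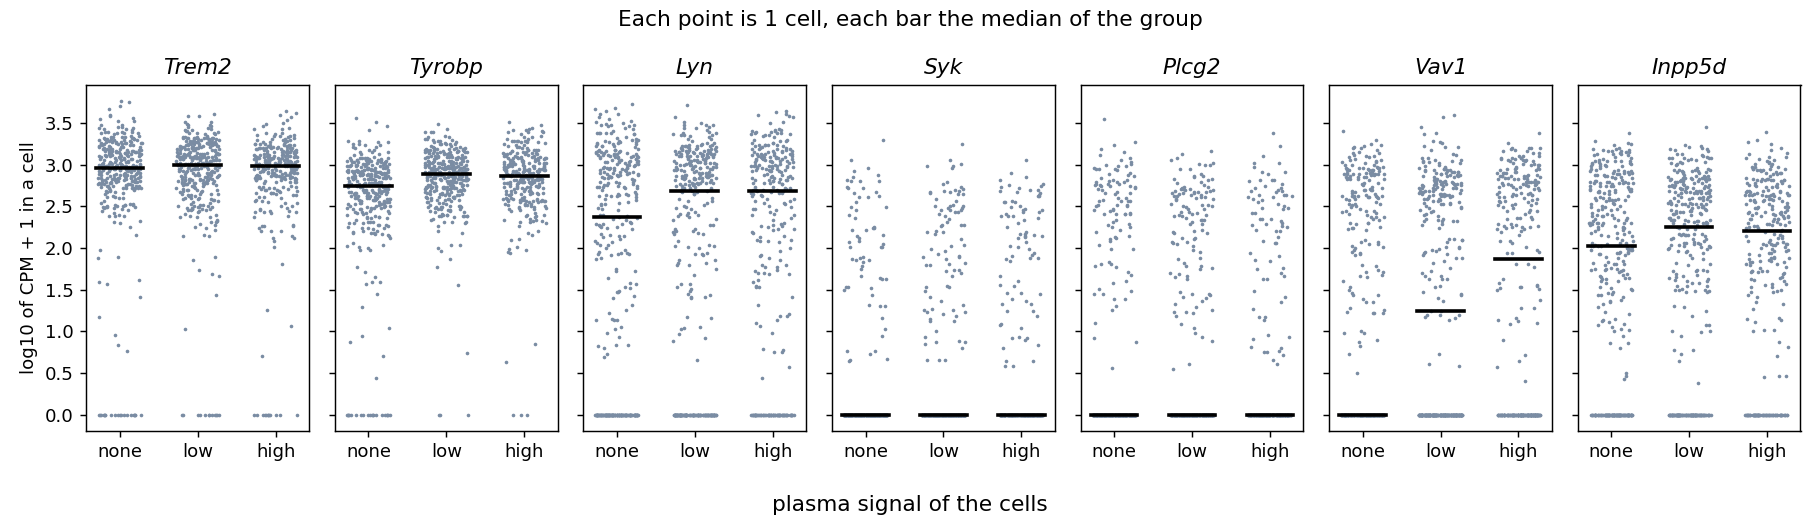
Level of each gene in every cell (log10 of CPM + 1, log scale) by plasma group, with each point 1 cell and each bar the group's median; points at 0 are cells without a read. Trem2 and Tyrobp form a continuous band in most cells, while most cells have no read of Syk or Plcg2 and their medians lie at 0.

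Over the 987 cells, the measured levels of the 7 genes were almost uncorrelated within a group and TH number. The Pearson correlation of thinned log2 values, centred within each group and TH number, was 0.03 between Trem2 and Tyrobp, and the highest of the 21 pairs was 0.08, between Lyn and Inpp5d. Counts in single cells are sparse and the cells share depth and capture, so values this low neither show nor exclude a relation. Among 2403 genes the levels most like Trem2 were those of Ctsz (0.19), Csf1r (0.18) and Lgmn (0.16), and those most like Tyrobp were Cst3 (0.19), B2m (0.16) and Pfn1 (0.16). All of these are weak, beside a median of 0.01 over all genes.

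The wider route was read from a list of 150 genes in 13 roles, of which 1 was missing from the tables. In plasma high against plasma none 100 of them were tested: 8 were higher and 4 lower by the 1.5-fold rule, and the median log2 ratio was 0.06, beside 0.05 over all tested genes. In plasma low against plasma none 1 was higher and 4 lower of 97, with a median of -0.02. In plasma high against plasma low 4 were higher and 1 lower of those tested, with a median of 0.05. The shares past the rule are below those of all tested genes given above. The counts by role that follow rest on few genes each and stand beside the same 16.3% of all tested genes in plasma high against plasma none, so none is read as particular to its role.

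Among the other adaptors and receptors that signal through an ITAM, Fcer1g, which encodes the Fc receptor gamma chain, was higher in cells with plasma signal in every TH number. It stood at 791, 623.5 and 595 CPM in plasma none, at 1003, 933 and 783 CPM in plasma low, and at 1020, 1070 and 896 CPM in plasma high. The lowest plasma high value lay above the highest of plasma none, which was not counted over all genes. The mean log2 ratio was 0.58 ± 0.21 for plasma high (1.49-fold, just under the 1.5-fold rule) and 0.44 ± 0.13 for plasma low against plasma none. The Fc receptors Fcgr3 (0.28 ± 0.14) and Fcgr1 (0.27 ± 0.13) were also higher in plasma high in 3 of 3 TH numbers, while Fcgr1 had -0.02 ± 0.29 in plasma low. Of all tested genes, 18.8% in plasma high and 16.7% in plasma low were higher than in plasma none in 3 of 3. These Fc receptor genes and Fcer1g were added after their values were seen.

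Of 14 receptors of the TREM family or coupled to Tyrobp, 4 were tested, and 0 met the 1.5-fold rule in any comparison. The most abundant was Csf1r, the receptor of the growth factors that keep microglia alive, at 5805 ± 826 CPM in plasma none and 7161 ± 866 CPM in plasma high. The log2 ratio of Csf1r was 0.31 ± 0.08, positive in 3 of 3 TH numbers, as for 18.8% of all tested genes.

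Of 7 ligands of TREM2 or its route, 2 were tested. Apoe, the lipoprotein component that TREM2 binds, stood at 54.8, 180.4 and 63.2 CPM in plasma none, at 144.2, 115.2 and 186.6 CPM in plasma low, and at 639.7, 602 and 2346 CPM in plasma high. For plasma high the log2 ratio of Apoe was 3.48 ± 1.73, and a read was found in 27.2% of plasma high and 8.09% of plasma none cells. A single cell supplied 47.4% of the Apoe reads of plasma none. C1qa, the most abundant ligand, had a log2 ratio of -0.06 ± 0.12 from 2961 ± 142.1 CPM in plasma none.

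Of the Src and Tec family kinases, 1 of 5 tested genes met the rule in plasma high against plasma none. Tec, a kinase upstream of phospholipase C gamma, was higher at 0.84 ± 0.93 on the log2 scale, a mean within its spread. Among 12 linkers and adaptors 2 were higher and 0 lower. Sla2, an adaptor that dampens antigen receptor signalling, stood at 50.8, 51.2 and 47.8 CPM in plasma none. In plasma high it stood at 79.2, 98.7 and 81.3 CPM, with a log2 ratio of 0.77 ± 0.15. Cbl, a ubiquitin ligase that acts on kinases of this route, had 0.85 ± 0.81, with 22.4% of its plasma high reads from 1 cell. Bin2, the most abundant of this role, had -0.06 ± 0.21.

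Among 14 tested genes of phospholipase C, calcium and protein kinase C signalling, 1 was higher and 1 lower. Dgkz, a diacylglycerol kinase that removes the lipid product of PLCG2, stood at 19.3, 19.4 and 18.6 CPM in plasma none, at 22.7, 63.1 and 38.4 CPM in plasma low, and at 61.2, 37.1 and 44.5 CPM in plasma high. The log2 ratio of Dgkz was 1.24 ± 0.36 in plasma high and 0.96 ± 0.72 in plasma low. Itpr2, a calcium channel opened by inositol trisphosphate, the other product of PLCG2, was lower at 164.1, 256.8 and 179.7 CPM in plasma none against 90.3, 128.7 and 154.2 CPM in plasma high. The log2 ratio of Itpr2 was -0.69 ± 0.41, and -0.71 ± 0.18 in plasma low. Prkcd, the most abundant of this role, had -0.26 ± 0.39 in plasma high.

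In the branch of phosphoinositide 3-kinase and AKT, 0 of 10 tested genes were higher and 1 was lower in plasma high. That was Pdpk1, the kinase that activates AKT, at -0.82 ± 1.12 on the log2 scale, a mean within its spread. Gsk3b, the most abundant of the branch, was lower in 3 of 3 TH numbers at -0.25 ± 0.09, as were 13.8% of all tested genes. In the CARD9 branch 1 of 6 was lower: Nfkb1, a subunit of NF-kB, stood at 141.99 ± 40.2 CPM in plasma none and 96.5 ± 36.6 CPM in plasma high, with a log2 ratio of -0.59 ± 0.18. Rela, the most abundant there, had -0.18 ± 0.77.

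Downstream of VAV1, 0 of 10 tested genes of Rac and actin control met the rule. Cdc42, a GTPase of cell protrusions and the most abundant of this role, had a log2 ratio of 0.21 ± 0.15 from 970.0 ± 116.9 CPM in plasma none. Of 8 MAP kinase genes 2 were higher, among them Mapk3 (ERK1) at 0.79 ± 0.52. Nras, the most abundant, had -0.18 ± 0.39.

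Among 7 tested inhibitory receptors 0 met the rule in plasma high against plasma none, and Sirpa, the most abundant, had 0.18 ± 0.41. Of 10 phosphatases and inhibitory adaptors 1 was lower. This was Dok3, an adaptor that restrains ITAM signalling, at 64.6 ± 13.6 CPM in plasma none and 38.3 ± 5.14 CPM in plasma high, with a log2 ratio of -0.73 ± 0.43. Ptprc (CD45), the most abundant, had 0.03 ± 0.53. Of 9 genes of TREM2 shedding and turnover 1 was higher: Vps35, a retromer subunit that returns receptors from endosomes, stood at 109.1 ± 31.4 CPM in plasma none and 178.6 ± 44.6 CPM in plasma high, at 0.71 ± 0.22. Adam10, a protease that cleaves TREM2 from the surface and the most abundant of this role, had -0.11 ± 0.12.

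**Figure D5:**
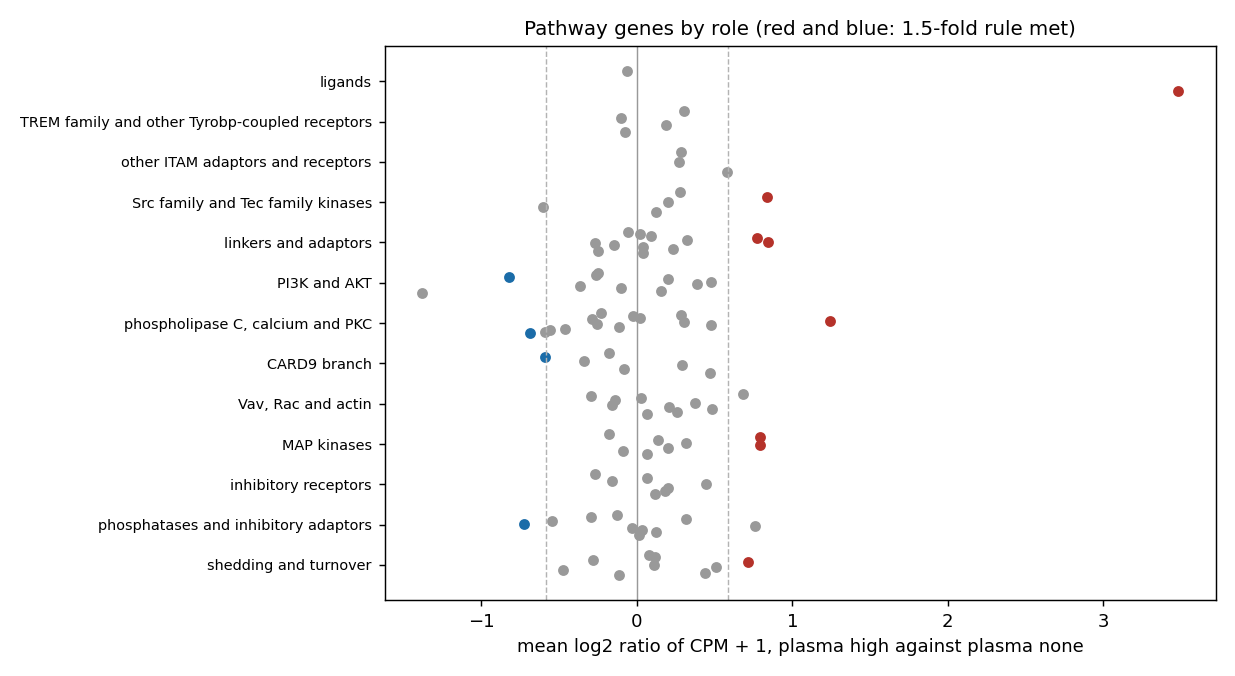
Mean log2 ratio of CPM + 1, plasma high against plasma none, of the 100 tested genes of the wider route by role, each point 1 gene; red and blue points met the 1.5-fold rule as higher and lower, and dashed lines mark 1.5-fold. Of the 12 coloured points 8 are higher and 4 lower, and Apoe stands farthest out at 3.48.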

How the data were processed

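Each deposited table held a count of reads per gene and cell, with gene coordinates; in 1 column the deposited value was an expected count, because 2 genes with 2 probes were averaged, and it was rounded. Per the submitters' processing notes, bcl2fastq, Trim Galore, STAR 2.5.3a and Seurat were used; neither the counting tool nor its strand setting is given in the sources used here. Per the file headers, the columns of TH 2 and TH 3 were reduced to top hits, while those of TH 1 carry no such note.

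Columns were matched to cells by well and TH number (1045 of 1111 labelled cells; the other 66 were not analysed here). As each well received a single sorted cell, doublets were not called, and no 2 cells with reads had identical values. Passing cells had at least 50000 reads and 500 genes. The median passing cell had 175699 to 404743 reads over the 9 sums. Sums per group and TH number were scaled with TMM (edgeR 4.0.16, R 4.3.3). Log2 ratios used CPM + 1. Tested genes had a mean of at least 20 CPM over the compared groups and were read in 10% or more of the cells of 1 of them; the filter is not a statistical test. The scripts were tested on simulated data. Lengths are of the longest principal transcript in GENCODE M21 (GRCm38). Shares of cells were compared after each cell was thinned at random to 50000 reads, and intervals are exact (Clopper-Pearson, 95%).

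Named were the 7 genes, the wider-list genes past the 1.5-fold rule for plasma high and plasma none, the most abundant gene of each role, and the 3 genes most like Trem2 and Tyrobp. Some genes that this rule names are not reported here. Fcer1g, Fcgr3 and Fcgr1 were added after their values were seen. The genes and lists were chosen with earlier results of these data known. Alternatives changed the scaling, pseudocount, filters, depth, wells, cells and TH numbers.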

Additional observations from a re-analysis of the deposited data

How the results depend on the processing

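With cells thinned to 50000 reads, 1 of the 7 genes (Plcg2, lower) met the 1.5-fold rule in plasma high against plasma none. Of all tested genes 13.4% met it there. Without the outermost wells the number was again 1 (Tyrobp, higher), beside 18.6% of all tested genes. With a TH number left out it was 0 to 1 (Plcg2 without TH 1, Vav1 without TH 2), beside 22.8% to 28.2%. In plasma high against plasma low it was 0 to 1 too (Vav1 without TH 2, Plcg2 without TH 3), beside 19.2% to 22.2%. The median log2 ratio of the 7 genes in plasma low against plasma none was 0.0267 with cells of at least 100000 reads and 1000 genes, 0.0577 without the outermost wells, and -0.0193 to 0.175 with a TH number left out. Of the ratios within their spread, several took both signs over the settings, among them those of Trem2, Syk and Inpp5d (-0.11 to 0.26) in plasma high against plasma none.

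Shares over all genes moved more. For high against none, low against none and high against low, without a filter on low values, 14.7%, 11.8% and 12.1% of genes (2531, 2017 and 2079 genes) met the 1.5-fold rule, and 8.35%, 6.56% and 6.81% (1434, 1118 and 1173 genes) the 2-fold rule. With a TH number left out, which asks for agreement of 2 numbers in place of 3, 22.8% to 28.2%, 17.9% to 21.02% and 19.2% to 22.2% met the 1.5-fold rule. The 2-fold rule was then met by 8.11% to 10.9%, 5.48% to 6.87% and 6.83% to 7.74%. Thinned to 50000 reads, 3.48% of genes in high against none and 2.23% in high against low met the 2-fold rule.

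The mean log2 ratio of Tyrobp ranged from 0.40 to 0.59 in plasma high and from 0.28 to 0.43 in plasma low against plasma none over all settings. That of Trem2 in plasma high ranged from -0.16 to 0.06, and that of Syk from -0.20 to 0.49. The log2 ratio of Tyrobp to Trem2 with the union of exons as length, chosen after seeing the data, was 2.07, 2.43 and 2.60 in plasma none, low and high. The causes of these shifts were not tested. No paired test between groups was possible, because a group counted as 1 sample and the labels name no animals. The log2 ratios were taken within each TH number and describe differences paired by that number. With 1 sample of cells a group, 3 TH numbers of unstated meaning and groups on separate plate columns, the comparisons describe these cells only.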

Other observations

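Lyn, Inpp5d and Plcg2 were set against Syk, the kinase recruited by the phosphorylated adaptor. Per length, Lyn exceeded Syk by a log2 ratio of 4.56 ± 0.11, 4.34 ± 0.29 and 4.52 ± 0.69 for plasma none, low and high (SD, n = 3 TH numbers). Inpp5d exceeded Syk by 2.88 ± 0.35, 2.71 ± 0.36 and 2.74 ± 0.46. For neither gene did the ratio differ between groups beyond its spread. Plcg2 exceeded Syk by 1.02, 2.02 and 1.77 in plasma none, a mean of 1.60 ± 0.52, and by 1.30, 0.10 and 1.4 in plasma high, a mean of 0.94 ± 0.72, beside 1.41 ± 0.69 in plasma low. The difference of plasma high from plasma none was 0.29, -1.91 and -0.37 by TH number, a mean of -0.67 ± 1.13, within its spread. The low value of TH 2 in plasma high comes with the highest Syk level of the 9 sums. The ratios to Syk, unlike their differences between groups, depend on the length chosen, here the principal transcript. With the union of exons, Plcg2 stood at 29.4 and Syk at 5.23 CPM per kilobase in plasma none.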
